A study of Mus musculus with 112 samples.

Results

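Cytochrome P450 genes were compared between caloric restriction (CR) and the control diet, and between strains on the control diet, in epididymal white adipose tissue (WAT) of male mice. The genes were chosen by name alone: every gene of the array table with a probe set of its own and a symbol made of Cyp, a family number, a subfamily letter and a gene number, with Cyp51, the sterol demethylase, left out. This gave 84 genes of 19938, each measured by a single probe set. No expression value entered this rule, although the family was taken up with earlier results of these data known.

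The study placed 8 mice of each of 7 strains on the control diet and 8 on CR, with 1 mouse per Affymetrix Mouse Gene 1.0 ST array, 112 arrays in all. The strains were the inbred 129S1/SvImJ, BALB/cJ, C57BL/6J, C3H/HeJ, CBA/J and DBA/2J, and B6C3F1/J, a hybrid of C57BL/6 and C3H mice; the sample labels spell BALB/cJ as Balbc/J and C57BL/6J as C57BL6/J. All mice were males housed singly, which started on their diet at 8 weeks of age and were collected at 22 weeks after an overnight fast; the labels name no drug or transgene. By the study's methods BALB/cJ mice were given more food on both diets, so that the CR ration of BALB/cJ equalled the control ration of the other strains, and the CR ration was reduced further part-way in 129S1/SvImJ and C57BL/6J.

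Cytochrome P450 enzymes hold a heme group and use oxygen, with electrons passed from P450 reductase in the endoplasmic reticulum or from ferredoxin in mitochondria, to add hydroxyl groups to their substrates. Families 1 to 4 handle foreign compounds and fatty acids and are best known from the liver, while other members make or break down steroid hormones, bile acids, vitamin D and retinoic acid. In adipose tissue P450 enzymes are known for the handling of fatty acids, oxysterols, retinoids and vitamin D, and of lipophilic foreign compounds that the fat stores.

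The values are log2 signals, in which a difference of 1 is a doubling of the signal. Levels of different genes come from different probe sets and were not ranked as amounts of RNA, except to say which probe sets were bright. As a measure of background, the 95th percentile of 1027 olfactory receptor genes, which fat is not known to use, was 6.16 over all arrays and 6.09 to 6.27 by group. Of the 84 P450 genes, 42 lay above it on average over all arrays, and the rest can be read as differences only with that limit in mind. The brightest were Cyp2e1 (12.1), Cyp4b1 (10.5), Cyp27a1 (10.5), Cyp2d22 (10.4) and Cyp4f13 (9.33). Cyp2e1 oxidizes ethanol, acetone and other small molecules, Cyp4b1 acts on fatty acids and aromatic compounds, and Cyp27a1 is the mitochondrial sterol hydroxylase of the bile acid pathway.

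Markers of other tissues varied between the arrays and bear on these genes. Albumin (Alb) ranged from 8.27 to 13.6 over the 112 arrays, so it was above the background level on every array, and the mean of 10 liver markers ranged from 6.22 to 12.2. Of the 10 liver markers, 8 were lower on CR across strains and none was higher. The group means of the liver markers were 9.71 on the control diet and 7.19 on CR in 129S1/SvImJ, 9.98 and 8.88 in BALB/cJ, 8.27 and 8.23 in C57BL/6J, 8.58 and 8.90 in C3H/HeJ, 7.46 and 7.21 in DBA/2J, 9.47 and 8.65 in B6C3F1/J, and 9.15 and 8.66 in CBA/J. All 14 measured macrophage markers were lower on CR across strains, with a median change of -0.56. Fibroblast and progenitor markers were lower for 5 of 7 and higher for none, with a median change of -0.32 (Dpt -0.57, Col1a1 -0.37 and Pdgfra -0.32), and endothelial markers were lower for 4 of 6. Epididymis markers stood apart from the rest of the strain on 11 arrays (8 CR and 3 control), with means of 5.22 to 11.6, and 15 arrays had a mean above 6, of which 11 were CR. In C57BL/6J 7 of 8 CR mice, at 5.79 to 11.6, exceeded every control mouse, the highest at 5.34, so that these markers ran with the diet there. In CBA/J 4 CR mice, at 5.99 to 11.4, exceeded every control mouse, the highest at 5.56. So did 4 in 129S1/SvImJ, at 5.23 to 5.52, where the highest control mouse was at 5.22. The part of these markers in the CBA/J values was not tested. Of 7 adipocyte markers 3 were lower, 1 was higher and 3 did not pass the test. In a bulk sample, fewer cells of a type and less RNA per cell cannot be told apart.

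The liver markers divided the P450 genes. In a limma fit across all genes with the liver-marker mean of each array as a covariate, 37 of the 84 P450 genes rose with the liver markers within groups, against 2.44% of all genes tested. Cyp2d26 rose by 0.87 per unit of the liver mean, Cyp2c67 by 0.85, Cyp3a25 by 0.82 and Cyp2f2 by 0.73, and the slope of Cyp4a12a was 1.10 ± 0.065 (SE). The slope was near 0 for Cyp1b1 (-0.012 ± 0.020), Cyp2r1 (0.026 ± 0.036) and Cyp4b1 (-0.0063 ± 0.025). This covariate was chosen after the data were seen, and it is itself lower on CR, so a fit with it takes out of the diet difference whatever moved with the liver markers. Whether liver RNA, or adipose cells that express these genes, gave the signal was not tested.

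**Figure D1:**
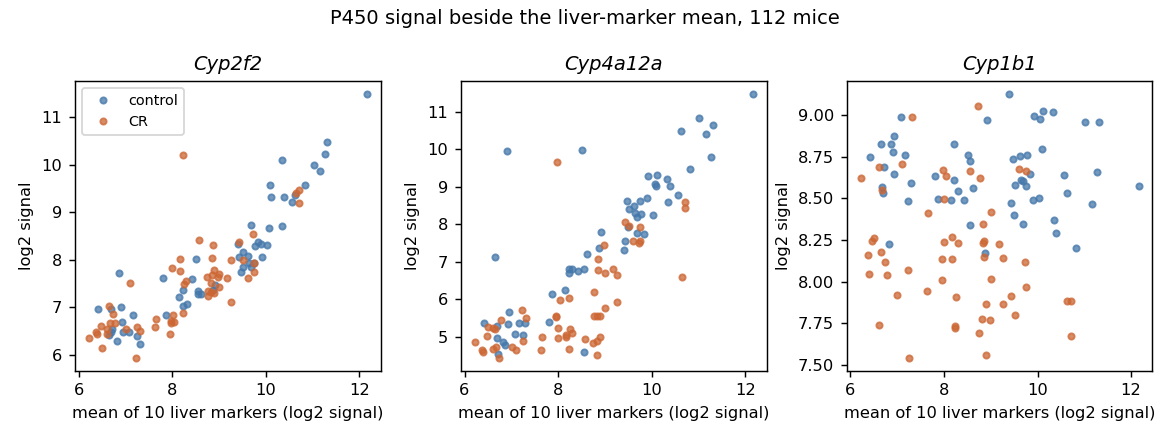
Log2 signal of Cyp2f2, Cyp4a12a and Cyp1b1 (vertical axes) against the mean log2 signal of 10 liver markers (horizontal axis), 1 point per mouse, 56 control and 56 CR. Cyp2f2 and Cyp4a12a climb with the liver markers, with slopes of 0.73 and 1.10, and Cyp1b1 does not.

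The sequence before the start site was read from RefSeq (GRCm38.p6) for the 63 members with an entry, as the 250 bases before the first listed start. A TATA box (TATAAA, either strand) was present in 23 of the 63, or 36.5%, and in 3504 of all 27025 promoters listed. The letters CAAAGTCCA, a core bound by the liver factor HNF4, were present on either strand in 7 of the 63, or 11.1%, and in 0.381% of all promoters. These 7 were Cyp2c65, Cyp2c67, Cyp2c68, Cyp2c70, Cyp3a11, Cyp3a16 and Cyp8b1. Of them 5 were among the members that rose with the liver markers, as were 27 of all 63 with an entry. Altogether 7 motifs were searched on both strands, and these 2 are shown because their shares stood furthest above the background in percentage points. Of the others, CCAAT was present in 27 of the 63 members and 34.5% of all promoters, TGACCT in 14 and 13.8%, GCGTG in 14 and 28.2%, CAAAGGTCA in 2 and 0.407%, and CACGTG in 1 and 6.05%. The motifs were chosen after a first look, the shares are a description and not a test, and a match is not a bound site. The 3 sequences that follow belong to members that rose with the liver markers and carry both motifs, in capitals; TTTATA is TATAAA read from the other strand.
Cyp3a11 (chr5:145879855-145880104, minus strand): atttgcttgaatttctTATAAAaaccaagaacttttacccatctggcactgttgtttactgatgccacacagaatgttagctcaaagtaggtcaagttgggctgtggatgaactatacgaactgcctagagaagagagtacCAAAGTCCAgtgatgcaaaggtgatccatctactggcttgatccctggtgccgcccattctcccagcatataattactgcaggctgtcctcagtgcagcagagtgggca
Cyp8b1 (chr9:121916306-121916555, minus strand): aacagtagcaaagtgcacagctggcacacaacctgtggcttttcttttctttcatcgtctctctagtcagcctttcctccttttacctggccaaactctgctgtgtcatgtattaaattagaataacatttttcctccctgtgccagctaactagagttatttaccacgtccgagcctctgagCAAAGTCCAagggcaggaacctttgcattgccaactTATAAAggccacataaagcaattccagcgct
Cyp2c70 (chr19:40187287-40187536, minus strand): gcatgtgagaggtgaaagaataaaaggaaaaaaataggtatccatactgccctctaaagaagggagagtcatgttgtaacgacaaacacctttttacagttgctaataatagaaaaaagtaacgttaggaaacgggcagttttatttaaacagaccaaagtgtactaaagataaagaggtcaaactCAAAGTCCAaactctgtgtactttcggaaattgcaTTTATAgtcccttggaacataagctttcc
The next 3 belong to members whose slope on the liver markers did not pass the test: Cyp2e1, the brightest member, with its TATA box in capitals; Cyp1b1, with the aryl hydrocarbon receptor core GCGTG in capitals as CACGC on the other strand; and Cyp2r1, which holds no TATAAA in this window.
Cyp2e1 (chr7:140763569-140763818, plus strand): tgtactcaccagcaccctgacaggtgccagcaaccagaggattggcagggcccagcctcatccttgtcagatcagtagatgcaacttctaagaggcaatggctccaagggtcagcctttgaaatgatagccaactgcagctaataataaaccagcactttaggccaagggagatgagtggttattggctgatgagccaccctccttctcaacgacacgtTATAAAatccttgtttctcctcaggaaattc
Cyp1b1 (chr17:79715062-79715311, minus strand): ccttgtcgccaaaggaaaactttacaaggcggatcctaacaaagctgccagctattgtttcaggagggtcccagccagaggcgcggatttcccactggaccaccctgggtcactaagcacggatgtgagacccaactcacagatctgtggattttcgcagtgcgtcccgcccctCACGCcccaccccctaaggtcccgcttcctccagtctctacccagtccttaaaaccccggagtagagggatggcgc
Cyp2r1 (chr7:114562973-114563222, minus strand): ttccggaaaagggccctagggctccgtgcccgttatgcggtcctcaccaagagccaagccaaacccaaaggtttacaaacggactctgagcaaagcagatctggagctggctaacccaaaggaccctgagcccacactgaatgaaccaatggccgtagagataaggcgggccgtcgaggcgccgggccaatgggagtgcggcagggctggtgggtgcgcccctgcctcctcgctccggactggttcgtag

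Across strains, CR lowered more P450 genes than it raised. By limma's test of the mean of the 7 strain differences, 35 of the 84 were lower on CR, against 22.0% of all genes tested, 7 were higher, against 21.9% of all genes, and 42 did not pass an adjusted p of 0.05. Only 24 of the members called either way were above background on average over all arrays. The median change of the members was -0.070, beside 0.0076 over all genes. Of the 37 members that rose with the liver markers, 28 were lower and 1 was higher, with a median change of -0.49. Of the other 47 members, 7 were lower and 6 were higher, with a median of 0.0066. With the liver-marker mean in the fit, 16 of the first 37 were still lower, all of them among the 28, and their median change was -0.13; 6 of the other 47 were lower. With the macrophage-marker mean in the fit, 5 members in all were lower and 6 higher. Of the 35 lower and 7 higher members, 2 (Cyp1b1 and Cyp27a1) and 4 (Cyp2r1, Cyp2b9, Cyp2b13 and Cyp2s1) kept their call, and 36 lost it. Of these, Cyp2b13 was below background in every group. No shares of all genes are given with either covariate, so these counts are not read as particular to the members. The macrophage mean was lower on CR in all 7 strains, from 10.2 to 9.05 in B6C3F1/J but only from 8.99 to 8.91 in BALB/cJ, and the standard error of Cyp4a12a grew from 0.28 to 0.45.

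**Figure D2:**
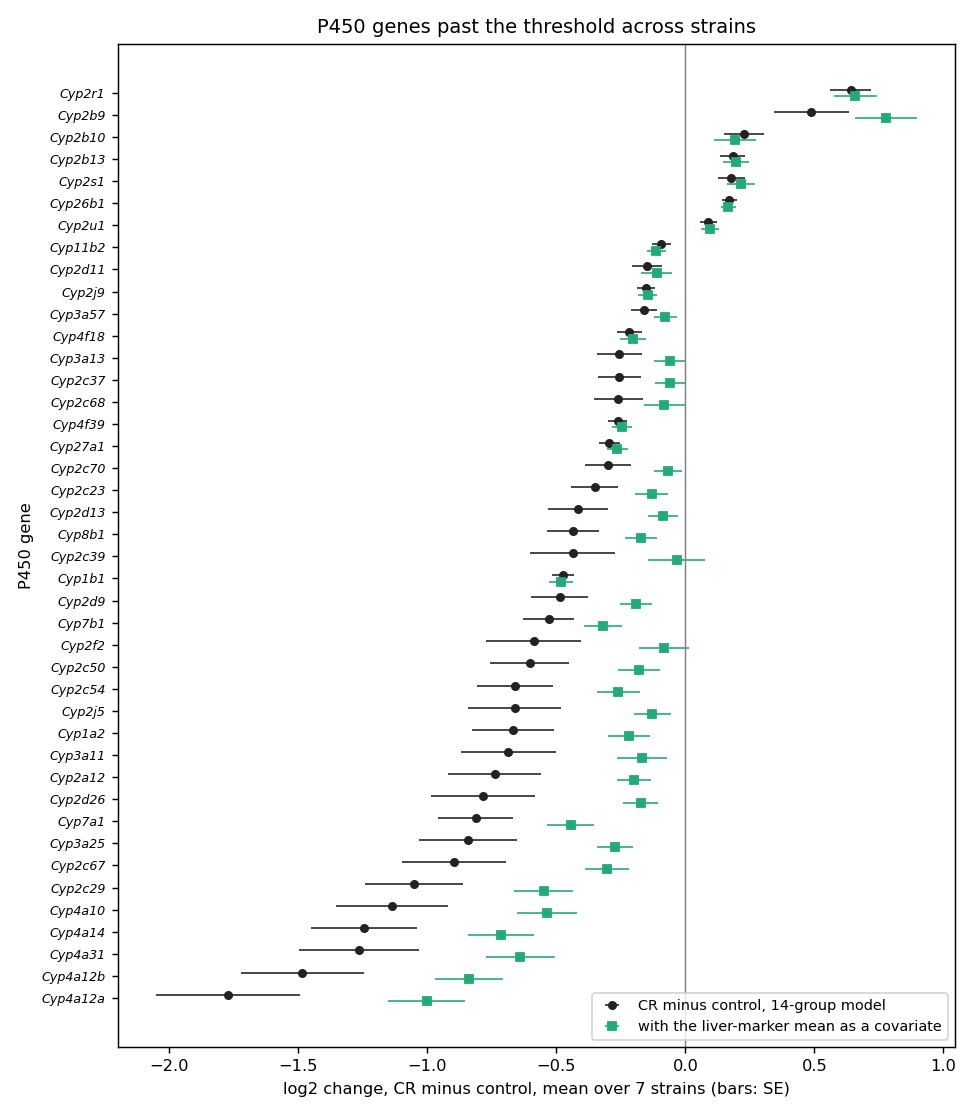
Log2 change from control to CR, as the mean over 7 strains with its standard error, for the 42 P450 genes past the threshold (black circles), and the same change with the liver-marker mean as a covariate (green squares). Cyp4a12a moves from -1.77 to -1.002 and Cyp2f2 from -0.59 to -0.083, while Cyp1b1 (-0.47 and -0.48), Cyp27a1 (-0.30 and -0.26) and Cyp2r1 (0.64 and 0.66) keep their place.

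The fatty acid hydroxylases of the Cyp4a group, which oxidize the end of fatty acid chains and include classical targets of the receptor PPAR alpha, had the 5 largest decreases. These genes lie side by side in one stretch of the genome, in RefSeq's order Cyp4a12a, Cyp4a12b, Cyp4a14, Cyp4a10 and Cyp4a31 with other Cyp4a genes between them. Cyp4a12a signals on the control diet had a lowest value of 4.54, a median of 7.77 and a highest of 11.5 (n = 56), and on CR 4.44, 5.47 and 9.67 (n = 56). The ranges overlapped widely, and the control mice were the more spread, with a standard deviation of 1.42 to 2.35 within a strain. Across strains the change was -1.77 ± 0.28 for Cyp4a12a (limma adjusted p = 4.0e-08), and CR was lower in all 7 strains. The change was -1.49 ± 0.24 for Cyp4a12b, -1.27 ± 0.23 for Cyp4a31, -1.25 ± 0.21 for Cyp4a14 and -1.14 ± 0.22 for Cyp4a10. Cyp4a12b and Cyp4a31 were below background on average over all arrays, and above it in 5 and 3 of the 14 groups. With the liver covariate the 5 changes were -1.002, -0.84, -0.64, -0.72 and -0.54, and all 5 remained past the threshold. They were -0.79, -0.69, -0.59, -0.63 and -0.42 with the macrophage covariate, and none passed (adjusted p = 0.14 to 0.38).

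Cyp4a14 behaved differently from strain to strain. In 129S1/SvImJ the control mice had a lowest value of 6.30, a median of 10.5 and a highest of 11.8, and the CR mice 5.12, 5.43 and 6.18, so that the groups did not overlap. In B6C3F1/J they were 6.70, 7.61 and 11.9 against 5.34, 5.89 and 7.86, with overlap. In CBA/J the control values of 5.06, 5.52 and 6.77 and the CR values of 5.42, 5.85 and 6.22 lay near or below the background level. The change was -4.32 ± 0.59 in 129S1/SvImJ (within-strain limma, adjusted p = 2.6e-05), -1.95 ± 0.62 in B6C3F1/J and 0.077 ± 0.20 in CBA/J. All CR mice of 129S1/SvImJ lay below that group's background level of 6.27, so the size of the difference there is set against a level not told from background. The F-test of unequal CR effects gave an adjusted p of 2.4e-05 for Cyp4a14, and 0.0013 and 0.0018 for Cyp4a31 and Cyp4a10, which changed by -4.21 and -3.79 in 129S1/SvImJ. With the liver covariate the change of Cyp4a14 was -1.82 in 129S1/SvImJ, -1.16 in C57BL/6J, -1.13 in B6C3F1/J and 0.21 in CBA/J, and the F-test gave an adjusted p of 1.2e-05. For Cyp4a12a the F-test gave 0.21, and no difference between strains was shown.

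**Figure D3:**
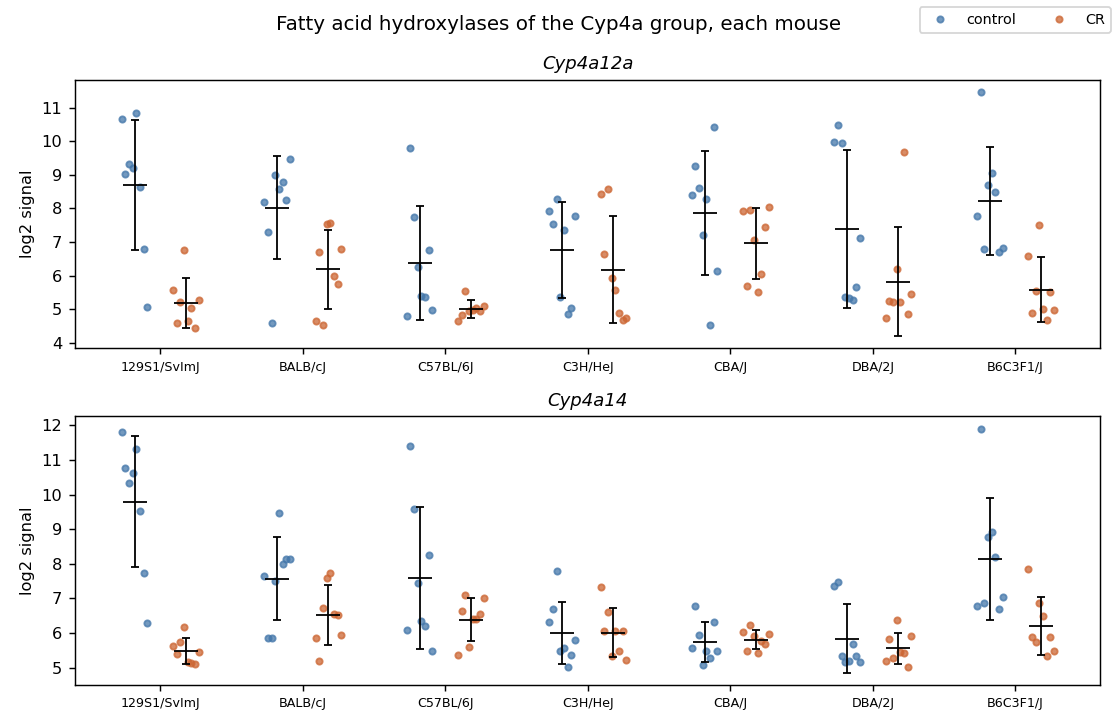
Log2 signal of Cyp4a12a and Cyp4a14 in each mouse by strain, control in blue and CR in orange, with the mean (dash) and standard deviation of 8 mice. Cyp4a14 is high on the control diet in 129S1/SvImJ (mean 9.80) and near background in CBA/J (5.74), and its 129S1/SvImJ groups are apart.

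The other family 4 genes were less variable between mice. Cyp4f39, a fatty acid hydroxylase known from skin, ranged from 6.08 to 7.15 on the control diet with a median of 6.69, and from 5.85 to 7.08 on CR with a median of 6.38. It fell by 0.26 ± 0.038 (adjusted p = 2.6e-09), was lower in all 7 strains, and fell by 0.25 with the liver covariate; with the macrophage covariate its change was -0.061 (adjusted p = 0.43). Cyp4f18, which inactivates leukotrienes in white blood cells, fell by 0.22 ± 0.048 across strains, by 0.66 in C57BL/6J and by 0.58 in B6C3F1/J, the 2 strains in which its signal was above background. Its CR effect differed between strains (F-test adjusted p = 0.0014). With the macrophage covariate the direction of Cyp4f18 turned, to 0.048 (adjusted p = 0.64). Cyp4b1 changed by -0.13 ± 0.056 (adjusted p = 0.053) and Cyp4f13 by -0.010. In all, 7 of 15 family 4 genes were lower and none higher, against 22.0% and 21.9% of all genes. Among these 15 members 10 were above background on average.

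Family 1 holds the genes that the aryl hydrocarbon receptor (Ahr) induces. Cyp1b1, the member of this family with a signal above background in all 14 groups, metabolizes estrogens and polycyclic compounds. In 129S1/SvImJ its control values ran from 8.73 to 9.03 with a median of 8.96, and its CR values from 7.91 to 8.26 with a median of 8.15. In C3H/HeJ they ran from 8.18 to 8.76 (median 8.44) and from 7.55 to 8.15 (median 7.80), and in B6C3F1/J from 8.49 to 8.97 (median 8.67) and from 7.56 to 8.42 (median 7.88). In these 3 strains every CR mouse was below every control mouse. In C57BL/6J the groups overlapped, with values of 8.49 to 8.83 and 8.14 to 9.05. The change across strains was -0.47 ± 0.043 (adjusted p = 2.3e-17), the smallest p of the members, and -0.48 with the liver and -0.37 with the macrophage covariate. It was unequal between strains (F-test adjusted p = 0.00063): -0.78 ± 0.11 in B6C3F1/J, -0.77 ± 0.061 in 129S1/SvImJ, -0.62 ± 0.089 in C3H/HeJ and -0.57 ± 0.14 in CBA/J, against -0.26 ± 0.099 in DBA/2J, -0.16 ± 0.13 in BALB/cJ and -0.15 ± 0.11 in C57BL/6J, which did not pass. Cyp1a1 was below background in every group (change 0.0066), and Cyp1a2, which rose with the liver markers, changed by -0.67 and by -0.22 with the liver covariate. Cyp1a2 was above background in 4 of the 14 groups.

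**Figure D4:**
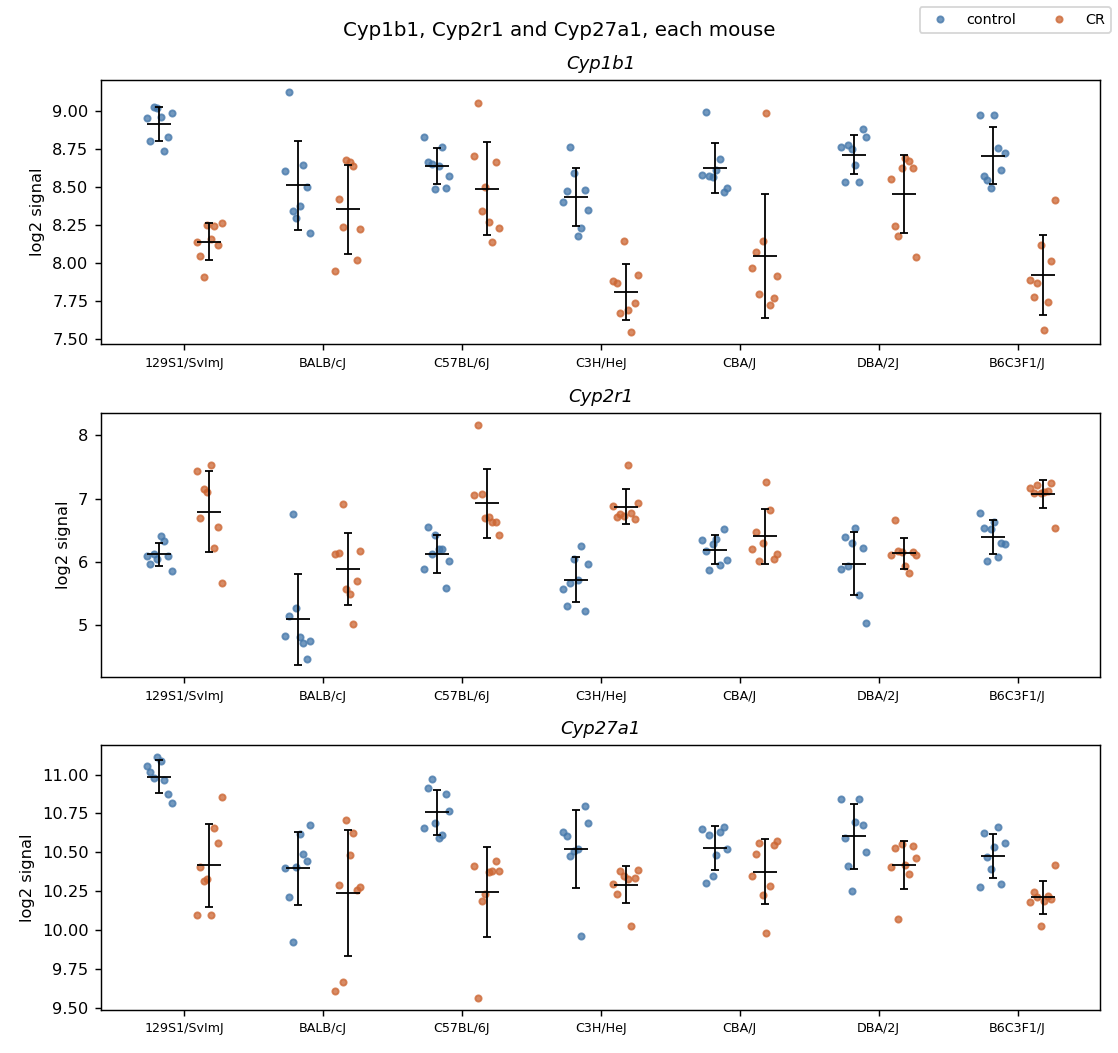
Log2 signal of Cyp1b1, Cyp2r1 and Cyp27a1 in each mouse by strain, control in blue and CR in orange, with the mean (dash) and standard deviation of 8 mice. Cyp1b1 and Cyp27a1 have lower and Cyp2r1 higher CR means in every strain; the control and CR mice of 129S1/SvImJ, C3H/HeJ and B6C3F1/J do not overlap for Cyp1b1, nor those of C3H/HeJ for Cyp2r1.

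The vitamin D pair was split. Cyp2r1, the main enzyme of the first hydroxylation of vitamin D, had the largest fitted increase of all members. Its control mean was above the background level in CBA/J and B6C3F1/J only, and both diets were below it in BALB/cJ and DBA/2J, so the sizes of the increases are set against levels not told from background. In C3H/HeJ its control values had a lowest of 5.23, a median of 5.69 and a highest of 6.25, and its CR values 6.67, 6.77 and 7.54, with no overlap. In BALB/cJ they were 4.46, 4.82 and 6.77 against 5.02, 5.91 and 6.91, with overlap. Cyp2r1 rose by 0.64 ± 0.079 across strains (adjusted p = 1.6e-11), with higher CR means in all 7 strains, from 0.17 in DBA/2J to 1.15 ± 0.15 in C3H/HeJ (within-strain adjusted p = 7.3e-05), and the change was 0.66 with the liver and 0.69 with the macrophage covariate. The F-test of unequal effects gave an adjusted p of 0.073. Cyp27b1, which makes the active hormone in a second step, was below background in every group and changed by 0.052 (adjusted p = 0.20).

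Of the 6 sterol and bile acid genes 4 were lower and none was higher, against 22.0% and 21.9% of all genes. Cyp27a1 ran from 10.59 to 10.97 on the control diet in C57BL/6J, with a median of 10.73, and from 9.57 to 10.45 on CR, with a median of 10.38, and the groups did not overlap. It fell by 0.30 ± 0.040 across strains (adjusted p = 4.2e-10), with lower CR means in all 7 strains. Its fall was 0.57 in 129S1/SvImJ, 0.51 in C57BL/6J and 0.26 in B6C3F1/J, the strains in which it passed. Across strains the change was -0.26 with the liver covariate and -0.17 (adjusted p = 0.036) with the macrophage covariate. Cyp7a1, the rate-limiting enzyme of classical bile acid synthesis, changed by -0.81 (-0.44 with the liver covariate), and Cyp8b1, which sets the share of cholic acid, by -0.43 (-0.17). These were -0.44 (adjusted p = 0.15) and -0.20 (adjusted p = 0.37) with the macrophage covariate. Both rose with the liver markers. Cyp7a1 was below background on average over all arrays, and above it in 3 of the 14 groups.

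Cyp7b1, the oxysterol hydroxylase of the alternative bile acid pathway, fell by 0.53 ± 0.097 across strains; with the macrophage covariate the change was -0.39 (adjusted p = 0.053). BALB/cJ control mice had a lowest value of 6.26, a median of 7.89 and a highest of 8.37, and CR mice 5.51, 6.17 and 7.18. In C57BL/6J the values were 5.51, 5.85 and 6.87 against 5.39, 5.79 and 6.70. The change was -1.48 ± 0.26 in BALB/cJ (unadjusted p = 1.7e-05, adjusted p = 0.17 within that strain) and -0.045 ± 0.19 in C57BL/6J. It was the only member whose BALB/cJ effect differed from the mean of the other strains, by -1.10 (adjusted p = 0.0087), where 3.25% of all genes did. With the liver covariate the BALB/cJ change was -0.71. Both diets were below the background level in C57BL/6J and B6C3F1/J, so this contrast includes strains in which the gene was not told from background.

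Of the 3 genes that break down retinoic acid, Cyp26b1 rose and Cyp26a1 (0.059) and Cyp26c1 (0.051) did not pass. Cyp26b1 on the control diet had a lowest value of 6.72, a median of 7.18 and a highest of 7.70, and on CR 7.07, 7.30 and 7.90. It rose by 0.17 ± 0.029 (adjusted p = 3.1e-07), most in C3H/HeJ (0.44 ± 0.092), but the means of 129S1/SvImJ and BALB/cJ differed by -0.0038 and -0.026, and the F-test of unequal effects gave 0.0067. With the macrophage covariate the change was 0.089 (adjusted p = 0.14). Of the 5 steroid hormone genes, Cyp11b2, below background on average, fell by 0.093, and Cyp17a1 changed by 0.062 (adjusted p = 0.77). Cyp17a1, the enzyme that commits steroids to androgens, was high in a DBA/2J control mouse (10.7) and a DBA/2J CR mouse (10.6), in groups with medians of 5.84 and 6.14. Both arrays carried raised epididymis markers, at 8.15 and 8.21. DBA/2J control mouse 4 and CR mouse 1 had such markers too, at 10.1 and 8.10. The next highest Cyp17a1 values of these groups were 6.36 and 6.69. The source of the high values was not tested. Cyp20a1, a member of unknown substrate, changed by 0.037.

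In family 2, which handles drugs, steroids and arachidonic acid, 17 of 43 genes were lower and 5 higher. Of all genes 22.0% were lower and 21.9% higher. Among these 43 members 20 were above background on average. Cyp2c29 changed by -1.05 ± 0.19, Cyp2c67 by -0.90 ± 0.20, Cyp2d26 by -0.78 ± 0.20 and Cyp2f2 by -0.59 ± 0.18; with the liver covariate these were -0.55, -0.30, -0.17 and -0.083, and Cyp2f2 no longer passed (adjusted p = 0.56). None of the 4 passed with the macrophage covariate, at -0.49, -0.14, -0.14 and -0.019 (adjusted p = 0.22 to 0.97). Cyp2c29 and Cyp2c67 were below background on average over all arrays, and above it in 4 groups and 1 group. Without BALB/cJ the change of Cyp2f2 across strains was -0.46 (adjusted p = 0.063). Among genes that did not rise with the liver markers was Cyp2j9, a member known from the brain. It fell by 0.15 ± 0.035, with lower CR means in all 7 strains. In B6C3F1/J its control values of 8.14 to 8.23 lay above its CR values of 7.93 to 8.10. The change of Cyp2j9 was -0.012 (adjusted p = 0.88) with the macrophage covariate. Cyp2d22, a bright drug-metabolizing member, fell by 0.36 ± 0.067 in 129S1/SvImJ, where the groups did not overlap, and its change across strains was -0.042. Cyp2e1, the brightest member, had a median of 12.2 on both diets over 56 mice each, and its change was 0.079 ± 0.10 (adjusted p = 0.57).

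The 5 increases of family 2 were 3 Cyp2b genes, Cyp2s1 and Cyp2u1. Cyp2b9 rose by 0.49 ± 0.15, Cyp2b10, the classical target of the receptor CAR (Nr1i3), by 0.23 ± 0.078 and Cyp2b13 by 0.18 ± 0.048. These 3 belong to one gene cluster. Cyp2b13 was below background in every group, with a mean signal of 4.52. Cyp2b9 and Cyp2b10 were above it in 7 and 6 of the 14 groups. In C57BL/6J Cyp2b9 ran from 5.22 to 6.17 on the control diet (median 5.51) and from 6.06 to 7.64 on CR (median 6.53). The change of Cyp2b9 was 0.93 ± 0.19 in C57BL/6J (within-strain adjusted p = 0.0030) and -0.035 ± 0.61 in B6C3F1/J, where control mice ran from 6.20 to 10.6. Its C57BL/6J control mean of 5.63 was below that group's background level of 6.25. The size of the change there is set against a level not told from background. Cyp2b9 rose with the liver markers (slope 0.42), and its change with the liver covariate was 0.78; that of Cyp2b10 was 0.19 (adjusted p = 0.049). With the macrophage covariate Cyp2b9 changed by 0.84 and Cyp2b10 by 0.056 (adjusted p = 0.76). Cyp2s1, known from epithelia, rose by 0.18 ± 0.052 and Cyp2u1, a fatty acid hydroxylase, by 0.088 ± 0.033; with the macrophage covariate they were 0.42 and 0.13 (adjusted p = 0.066 for Cyp2u1). The CR mean of Cyp2s1 was above the control mean in 6 strains, and the difference was -0.32 in 129S1/SvImJ (F-test of unequal effects, adjusted p = 0.038).

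Of the 6 family 3 genes, the main drug-oxidizing enzymes of the liver, 4 were lower and none was higher. Of all genes 22.0% were lower and 21.9% higher. Only 1 of the 6, Cyp3a25, was above background on average. Cyp3a25, the brightest at 7.12, changed by -0.84 ± 0.19, and by -0.27 with the liver and -0.16 with the macrophage covariate (adjusted p = 0.71 for the second). Cyp3a11, above background in 3 of the 14 groups, changed by -0.69, and by -0.17 with the liver covariate (adjusted p = 0.17). Cyp3a57, below background, changed by -0.16 and by 0.0091 with the macrophage covariate (adjusted p = 0.94).

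Within strains, tested on 16 arrays each at the study's unadjusted p of 0.01, the most members were called in 129S1/SvImJ and BALB/cJ. In 129S1/SvImJ 29 members were lower (14.2% of all genes) and 5 higher (14.4%); in BALB/cJ 18 were lower (0.958%) and 1 higher (0.622%). These are the 2 strains in which liver markers passed the same test, 10 of 10 in 129S1/SvImJ and 9 of 10 in BALB/cJ, all lower. Of the members lower in these strains, 25 of 29 and 18 of 18 were among the 37 that rose with the liver markers. With the covariate 7 and 3 members were lower, with no share of all genes given for that fit. In BALB/cJ no member passed an adjusted p of 0.05 by limma, while 19 passed the unadjusted threshold and 12 by the methods' t-test.

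In the other 5 strains no liver marker passed. In C57BL/6J 6 members were lower (7.82% of all genes) and 5 higher (9.80%). Under the liver covariate 18 were lower and 5 higher, with no share of all genes given. Among the lower was Cyp4a12a at -1.34 ± 0.17, where it had been -1.38 ± 0.55. Without the 2 C57BL/6J CR mice whose epididymis markers stood furthest apart, the changes there were 0.79 for Cyp2b9, 0.35 for Cyp39a1, 0.56 for Cyp2r1 and -0.39 for Cyp27a1, all still called, and 0.18 for Cyp26b1 (unadjusted p = 0.020), which was not. All but 1 of the remaining C57BL/6J CR mice still lay above the controls in these markers, and their part in these values was not tested. In C3H/HeJ 1 was lower, Cyp1b1 (7.43%), and 5 were higher (9.25%): Cyp2r1, Cyp26b1, Cyp2b13, Cyp3a44 and Cyp2s1. Of these, Cyp2b13 and Cyp3a44 were below background in every group. In CBA/J 5 were lower (12.3%) and 2 higher (8.52%), in B6C3F1/J 10 were lower (14.4%) and 4 higher (16.5%), and in DBA/2J none was lower (2.88%) and 2 were higher (3.15%), Cyp2s1 and Cyp2b13, neither past an adjusted p of 0.05. Altogether 54 of the 84 members were called in at least 1 strain, against 53.4% of all genes, and 9 in at least 3, against 18.7%, and none was called lower in one strain and higher in another. The 9 were Cyp1b1 and Cyp4f39 (lower in 4 strains), Cyp2r1 (higher in 4), Cyp27a1, Cyp2c29, Cyp4a12a and Cyp4a12b (lower in 3), and Cyp26b1 and Cyp2s1 (higher in 3).

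The F-test for unequal CR effects between strains passed for 15 of the 84 members, against 19.0% of all genes. The members' share was thus near the background. With limma's array weights 38 members passed. No share of all genes is given for that setting, so this count is not read as a result about the members. Cyp4a14, Cyp1b1, Cyp4a31, Cyp4f18 and Cyp4a10 had the smallest p, as given above. Cyp4f13, a fatty acid hydroxylase, was called at 0.17 ± 0.053 in C57BL/6J (F-test adjusted p = 0.0063), and Cyp39a1, an oxysterol hydroxylase, rose by 0.48 ± 0.14 there (F-test adjusted p = 0.031). The change of Cyp20a1 was -0.22 ± 0.060 in CBA/J (F-test adjusted p = 0.040).

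On the control diet, limma's F-test found unequal levels among the strains for 50 of the 84 members, against 56.6% of all genes, while the median range of the strain means was 0.61 for the members and 0.29 for all genes. Of the 50, 129S1/SvImJ had the highest mean for 17 and DBA/2J the lowest for 25. For these counts no shares of all genes are given, and they are not read as particular to the members. These strains had liver-marker means of 9.71 and 7.46 on this diet. BALB/cJ, with the highest liver-marker mean at 9.98, had the highest level for 11. With the liver covariate 46 members differed, with no share of all genes given for that fit. A base difference between strains under a probe and a difference in RNA cannot be told apart from these values.

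The largest ranges were those of Cyp4a14 (4.06), Cyp4a31 (3.46), Cyp4a10 (3.31), Cyp2c39 (2.44), Cyp2b9 (2.41), Cyp4a12a (2.31), Cyp2e1 (2.24) and Cyp2c29 (2.08). The order for Cyp4a14 was 129S1/SvImJ (9.80), B6C3F1/J (8.14), C57BL/6J (7.597), BALB/cJ (7.58), C3H/HeJ (6.00), DBA/2J (5.84) and CBA/J (5.74), in which 129S1/SvImJ and B6C3F1/J differed, as did BALB/cJ and C3H/HeJ, and the other neighbours did not pass. Cyp4a31 and Cyp4a10 were also highest in 129S1/SvImJ, at 8.23 and 9.39. Cyp2c39, an epoxygenase and retinoid hydroxylase, ran from 6.53 in 129S1/SvImJ to 4.10 in C57BL/6J, and Cyp2c29 from 7.20 in BALB/cJ to 5.13 in DBA/2J. Cyp2c39, Cyp2c29 and Cyp4a31 were below background on average over all arrays. Cyp4a12a did not pass (F-test adjusted p = 0.0504), and no neighbours in its order differed.

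Cyp2e1 fell into a bright and a dimmer set of strains. BALB/cJ control mice ran from 12.998 to 13.45 with a median of 13.23 and C57BL/6J from 12.77 to 13.24, with little spread. C3H/HeJ control mice ran from 9.60 to 13.2 with a median of 10.7, and CBA/J from 11.1 to 12.3 with a median of 11.7. The means were 13.22 in BALB/cJ, 12.99 in C57BL/6J, 12.61 in 129S1/SvImJ, 11.70 in CBA/J, 11.70 in DBA/2J, 11.36 in B6C3F1/J and 10.97 in C3H/HeJ (F-test adjusted p = 1.4e-14). The only neighbours that differed were 129S1/SvImJ and CBA/J, by 0.92 (adjusted p = 0.0064), and the range on CR was 2.17.

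Cyp4f18 was above background in C57BL/6J and its hybrid. C57BL/6J control mice ran from 7.12 to 7.85 (median 7.42) and B6C3F1/J from 6.86 to 7.67 (median 7.14), while C3H/HeJ mice ran from 5.57 to 6.34 (median 5.97). The means were 7.43 and 7.22 in the first 2 and 5.73 to 6.01 in the other 5 strains (F-test adjusted p = 2.4e-29), and B6C3F1/J differed from CBA/J, the next in order, by 1.21 (adjusted p = 2.1e-13).

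BALB/cJ had the highest control level of Cyp2b10 and Cyp7b1. Cyp2b10 ran from 7.03 to 7.54 in BALB/cJ control mice (mean 7.28), above every control mouse of the other strains, whose means were 5.59 in 129S1/SvImJ to 6.27 in DBA/2J; BALB/cJ differed from DBA/2J by 1.01 (adjusted p = 7.2e-05). Cyp7b1 had a mean of 7.78 in BALB/cJ against 6.69 in CBA/J, a difference of 1.09 (adjusted p = 0.00065), and 5.93 in C57BL/6J, the lowest. Cyp2r1 had its lowest control mean in BALB/cJ, at 5.09, and the next in C3H/HeJ, at 5.72, but both were below background and their order is not read. Cyp2j13, a gene of the fatty acid epoxygenase subfamily that was below background on average, had a mean of 5.83 in DBA/2J with mice from 4.74 to 7.14, against 4.59 to 4.64 in the other strains. Cyp2b9 was highest in B6C3F1/J, at 7.49, and lowest in 129S1/SvImJ, at 5.08.

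**Figure D5:**
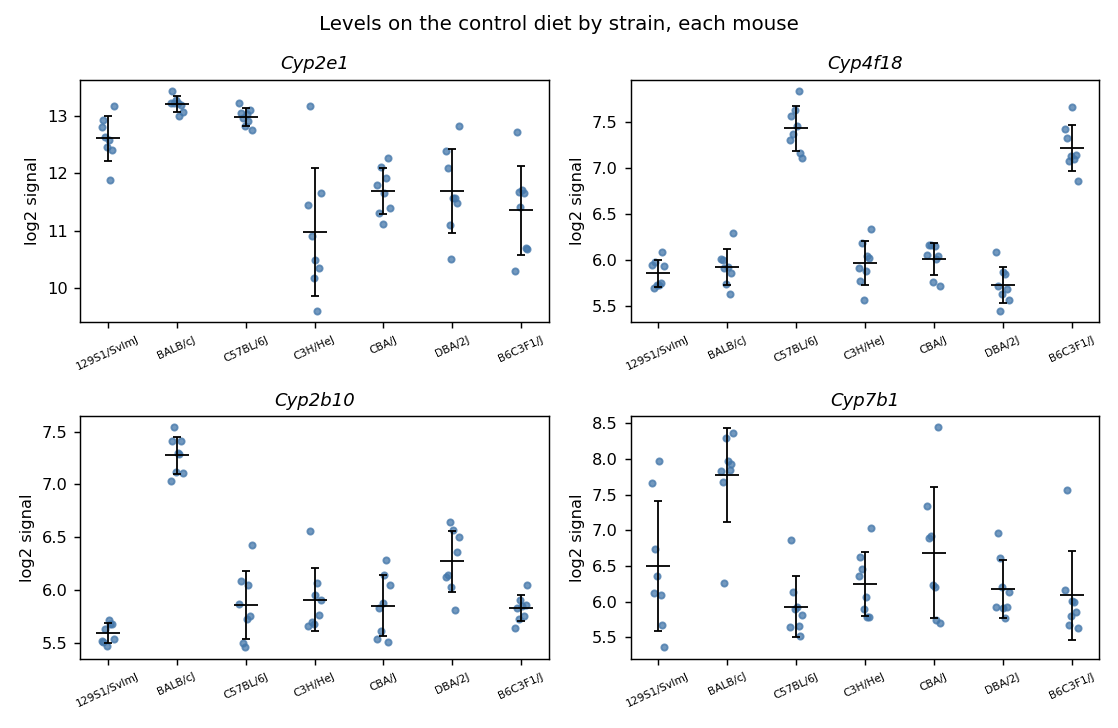
Log2 signal of Cyp2e1, Cyp4f18, Cyp2b10 and Cyp7b1 in each control mouse by strain, with the mean (dash) and standard deviation of 8 mice. Cyp4f18 is high in C57BL/6J (7.43) and B6C3F1/J (7.22), Cyp2b10 in BALB/cJ (7.28), and Cyp2e1 splits BALB/cJ, C57BL/6J and 129S1/SvImJ from the other 4 strains.

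Close paralogs limit what can be said of single genes. The array table holds 7 probe sets that name several genes with a P450 among them, which were not counted as members and not tested. The set that names Cyp4a32, Cyp4a31 and Cyp4a10 had control and CR means of 9.71 and 5.13 in 129S1/SvImJ, 8.18 and 6.74 in B6C3F1/J, and 6.81 and 7.42 in C3H/HeJ. The set shared by Cyp2a5 and Cyp2a4 had means of 8.12 and 7.72 in BALB/cJ and 6.31 and 6.85 in C57BL/6J. The set shared by Cyp4v3 and the neighbouring gene Klkb1 had a lower CR mean in all 7 strains, by 0.14 in DBA/2J to 0.65 in 129S1/SvImJ. The other sets join Cyp2c40, Cyp2c67, Cyp2c68 and Cyp2c69, and members of the Cyp3a group. Cyp4a12a and Cyp4a12b have probe sets of their own, with means of 6.73 and 5.82, but are near-identical, as are several Cyp2c, Cyp2d and Cyp3a genes, and cross-reading between them was not tested. Cyp19a1, the aromatase, has no probe set of its own in the table used and was not analysed here.

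Lists of P450 partners were read beside the shares of all genes, 21.9% higher and 22.0% lower on CR across strains. Of 6 measured electron donors and cytochrome b5 genes, 5 were higher on CR and none lower: Cyb5b by 0.80, Pgrmc2, a heme-binding partner, by 0.38, Fdx1, the mitochondrial ferredoxin, by 0.24 and Pgrmc1 by 0.11. P450 reductase itself was not analysed here. Of 11 genes of heme synthesis and breakdown 5 were higher and 3 lower; Urod rose by 0.32, Alad by 0.30 and Uros by 0.19, which all act in heme synthesis, and Hmox1, the inducible heme oxygenase, fell by 0.41. Of 14 partners in fatty acid epoxide and retinoid handling 2 were higher and 7 lower; Aldh1a7 rose by 0.71, while the epoxide hydrolases Ephx2 and Ephx1 fell by 0.46 and 0.34 and the retinal reductase Dhrs3 fell by 0.38.

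Of 19 nuclear receptors and Ahr genes, 3 were higher and 5 lower, against 21.9% and 22.0% of all genes. Nr1i3 changed by -0.48, Rarg by -0.26 and Rara by -0.20, while Hnf4a changed by -0.20 (adjusted p = 0.17) and Ppara by -0.0099 (adjusted p = 0.92). Ahr fell by 0.20 ± 0.024, and of 4 of its targets outside the P450 family none passed (Aldh3a1 0.075, Nqo1 -0.052, Tiparp -0.033 and Ahrr 0.016). Of 9 PPAR alpha targets outside the P450 family 4 were higher and 4 lower; Vnn1, a pantetheinase, changed by -1.55 and Pdk4 by -0.46, and Hadha and Slc25a20, of fatty acid oxidation, rose by 0.32 and 0.23.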

How the data were processed

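Epididymal fat RNA of 112 mice was hybridised to Affymetrix Mouse Gene 1.0 ST arrays. The deposited values are log2 signals that the authors made by RMA in Affymetrix Expression Console; its version, and whether all arrays were normalized together, are not given in the sources used here. Array medians ran from 6.72 to 6.86, and the number of arrays, rather than a read depth, limits the precision. No scan date, slide or detection call was used.

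Of 35556 probe sets 21789 name 1 gene, giving 19938 genes by the brightest probe set. Groups followed the sample labels. Effects across strains, their differences (F-tests) and control levels were tested with limma 3.58.1 (R 4.3.3, statmod 1.5.0) on 14 group means, with Benjamini-Hochberg adjustment over all genes and a threshold of 0.05; pairs of strains were adjusted over all genes and pairs. Effects within a strain used limma on its 16 arrays at an unadjusted p of 0.01. The p-values measure the spread between mice. The fits were tested on simulated data. Figures and counts used Python 3.11.15, pandas 2.3.3 and matplotlib 3.10.9.

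Members and lists were chosen with earlier results of these data known. Genes were named by rule: the 10 largest changes each way, the 5 smallest F-tests, the 8 largest control ranges, the 5 brightest, the brightest of each role, paralogs sharing probe sets, 10 genes set by name (Cyp4a12a, Cyp4a12b, Cyp2e1, Cyp1b1, Cyp27a1, Cyp7b1, Cyp4b1, Cyp26b1, Cyp19a1 and Cyp2f2), and up to 4 of each partner list; other genes named were chosen after their values were seen. A promoter was read for 63 of the 84 members. Alternatives covered normalization, scaling, a filter on dim genes, variance models, array weights, arrays with epididymis markers, a replicate block and the methods' t-test. Covariates of liver and macrophage markers were added after seeing the data.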

Additional observations from a re-analysis of the deposited data

Results flagged for a closer look

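For 17 P450 genes the highest or lowest mouse of each of the 14 groups was compared with its nearest neighbour by Dixon's ratio at its critical value for 8 mice. Of 238 tests 48, or 20.2%, were past the critical value, where chance gives about 5%. The same few mice recurred. No explanation of these values was tested.

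C57BL/6J CR mouse 2, with an epididymis-marker mean of 11.6, was lowest for Cyp2e1 (11.7), Cyp27a1 (9.57), Cyp4b1 (8.46) and Cyp2d22 (9.56) and highest for Cyp2r1 (8.17) and Cyp17a1 (8.07). CBA/J CR mouse 5, with an epididymis-marker mean of 11.4, was highest for Cyp1b1 (8.98), Cyp17a1 (7.27) and Cyp2j13 (6.69) and lowest for Cyp4b1 (9.67) and Cyp2d22 (9.86). DBA/2J CR mouse 6 was highest for Cyp4a12a (9.67) and Cyp17a1 (10.6), and DBA/2J control mouse 3 for Cyp17a1 (10.7).

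B6C3F1/J control mouse 2, which had the highest liver-marker mean of all arrays (12.2), was highest for Cyp4a14 (11.9), Cyp7b1 (7.57), Cyp2f2 (11.5), Cyp2b9 (10.6) and Cyp17a1 (7.99). C57BL/6J control mouse 2 was highest for Cyp7b1 (6.87), Cyp2f2 (10.2) and Cyp17a1 (7.05), and CBA/J control mouse 7 for Cyp2f2 (9.88). BALB/cJ control mouse 3 was lowest for Cyp4a12a (4.58), Cyp7b1 (6.26) and Cyp4b1 (10.3) and highest for Cyp2r1 (6.77).

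In C3H/HeJ, Cyp27a1 was lowest in control mouse 6 (9.96) and CR mouse 6 (10.03), Cyp26b1 in control mouse 4 (6.72), and Cyp2r1 was highest in CR mouse 5 (7.54). Also in C3H/HeJ, Cyp2b10 was highest in CR mouse 7 (8.87) and control mouse 2 (6.56), and Cyp2d22 in control mouse 2 (10.8). In CBA/J control mouse 2 Cyp1b1 was highest (8.99) and Cyp4b1 lowest (9.89). In DBA/2J, Cyp2r1 was highest in CR mouse 2 (6.66), Cyp4f18 in CR mouse 3 (7.05), where Cyp27a1 was lowest (10.1), and Cyp2b9 in control mouse 2 (6.40).

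In B6C3F1/J CR mice, mouse 8 was lowest for Cyp2r1 (6.54) and highest for Cyp7b1 (6.07) and Cyp2j13 (6.31), and mouse 1 was highest for Cyp17a1 (7.15). BALB/cJ CR mouse 3 was lowest for Cyp2e1 (12.6), and C57BL/6J CR mouse 3 was highest for Cyp2b9 (7.64). In 129S1/SvImJ, control mouse 8 was lowest for Cyp2s1 (7.12) and control mouse 1 highest for Cyp2d22 (11.1).

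limma's F-test found unequal CR effects among strains, with adjusted p in order, for Cyp4a14 (2.4e-05), Cyp1b1 (0.00063), Cyp4a31 (0.0013), Cyp4f18 (0.0014), Cyp4a10 (0.0018), Cyp4f13 (0.0063), Cyp26b1 (0.0067), Cyp2f2 (0.025), Cyp7b1 (0.029), Cyp39a1 (0.031), Cyp2c66 (0.033), Cyp2d22 (0.037), Cyp2c39 (0.038), Cyp2s1 (0.038) and Cyp20a1 (0.040). The BALB/cJ effect differed from the mean of the other strains for Cyp7b1, by -1.10.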

How the results depend on the processing

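Of the counts of members called, 127 stayed within 1.5 times the reported count under an alternative and 33 did not; of values of single genes, 805 kept their direction and their side of the threshold, 53 lost their call, 22 gained one and 2 turned direction. No shares of all genes are given for these alternatives, so the counts that follow describe the members only. Members lower across strains went from 35 to 19 with a filter on dim genes, which tests fewer genes and leaves out members below background on average. They went to 22 with the liver covariate and to 5 with the macrophage covariate. Members with unequal effects between strains went from 15 to 38 with array weights, and those with a BALB/cJ effect apart from 1 to 2 with array weights, without epididymis arrays, and with the liver covariate. In 129S1/SvImJ 34 members became 20 (dim filter), 9 (liver), 5 (macrophage), 15 (methods' t-test) and 22 (that test adjusted). In BALB/cJ 19 became 9 (dim filter), 3 (liver), 0 (adjusted p), 9 (all arrays modelled together), 12 (methods' t-test) and 0 (that test adjusted). In C57BL/6J 11 became 7 (quantile normalization), 23 (liver) and 6 (macrophage), and in C3H/HeJ 6 became 11 (liver). With the macrophage covariate CBA/J went from 7 to 0, DBA/2J from 2 to 0 and B6C3F1/J from 14 to 3. In CBA/J the macrophage means were 9.63 to 10.4 on the control diet and 8.08 to 8.78 on CR. The diets did not overlap in B6C3F1/J and 129S1/SvImJ either. In these strains the covariate runs with the diet, so nothing is read from calls lost with it. By the methods' t-test B6C3F1/J had 9. In DBA/2J 2 became 1 with the dim filter, array weights, replicate block, all arrays modelled together or the methods' t-test, and 0 at an adjusted p by either test.

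With the macrophage covariate 23 of the 84 members changed sign; of these Cyp3a57 (0.0091) and Cyp4f18 (0.048) had been called, and the other 21 had not. With the liver covariate 7 changed sign, none of them called. Outside both covariates Cyp2f2 lost its call without BALB/cJ, and Cyp4b1 gained one with array weights, the dim filter, quantile normalization or the block. The cause of these changes was not tested. Replicate numbers were shared between the diets. The pairs' correlations ran from -0.36 to 0.55, and 18 of 56 exceeded 0.1. Whether mice with the same number were handled together was not tested. With the replicate block 8 members were higher, 36 lower, 20 unequal between strains and 53 different between strains on the control diet.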
